A study of Mus musculus with 6 samples.

Results

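The Cdk4-Mdm2 segment is a stretch of 11.9 Mb near the end of mouse chromosome 10 (GRCm38, chr10:117051001-128912822, from Cct2 to Cd63). It was described through 58 listed genes of the 23420 gene symbols in the count table, of which 54 were among the 11608 genes with enough reads to be tested. The list was drawn up from position together with the ratio of each β1-K794Q-GFP culture to the mean of the β1-WT-GFP cultures, gene by gene. The higher level of the listed genes in β1-K794Q-GFP cells is therefore given as a description, with no test.

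The data are total RNA of eEnd2 cells, a line of endothelial cells from mouse embryos, sequenced after depletion of ribosomal RNA. Both groups carried a human Integrin-β1A chimera with GFP in its extracellular part, expressed from a stably transfected plasmid under a short fragment of the human β-actin promoter. The comparison asked what a mimic of constitutive acetylation does to the transcriptome: the chimera was wildtype in β1-WT-GFP cells and had glutamine in place of the lysine in β1-K794Q-GFP cells. Each group had 3 untreated cultures, A, B and C, grown to confluence in serum-containing medium, and the cells kept their own mouse integrins. Cells were sorted for GFP before culture. The groups carried different plasmids, so an effect of the mutation cannot be told apart from another difference between the sorted lines. The labels describe GFPlow and GFPhigh populations, and which of them a culture came from is not named. Nothing in the sources says that the cultures of a group came from separate transfections, so the spread between them may be technical, and a difference between sorted populations cannot be told apart from one between cultures.

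The segment is the counterpart of a region of human chromosome 12 that is known for being gained in sarcomas and gliomas. CDK4 and MDM2 are the best known genes of that region. Cdk4 is the kinase that, with the D-type cyclins, starts the passage from G1 into S phase. Mdm2 is the ubiquitin ligase that keeps p53 low. Most of the other genes of the region have unrelated tasks, in translation, chromatin, membrane traffic or signalling, so the list is a neighbourhood and not a pathway.

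The totals ranged from 9589826 to 15287191 counts per culture. Markers of endothelial cells (Cdh5, Pecam1, Kdr, Tek and 4 others) summed to 7037 to 8069 normalized counts in β1-WT-GFP cells and to 6076, 11606 and 6628 in cultures A, B and C of the β1-K794Q-GFP cells. Cdh5 (VE-cadherin) was at 1409, 3994 and 1294 in the latter. Among the β1-K794Q-GFP cultures B was the highest for each of these markers but Kdr. Kdr was at 353, 726 and 945 there, against 777, 798 and 1154 in β1-WT-GFP cells. Culture B, which was the highest for the sum of these markers, was the lowest for most genes of the segment. The part of the one in the other was not tested. The defining mesenchymal markers Dcn, Lum and Thy1, the epithelial markers Epcam and Krt18, the muscle marker Des and the T cell marker Cd3e were at 0 in every culture. The mesenchymal list summed to 11.3 normalized counts in β1-WT-GFP culture C, with Col1a1 at 5.92, Col3a1 at 3.06 and Pdgfrb at 2.30, and to at most 1.55 in the other cultures. The smooth muscle list summed to 1.53 in that culture, with Acta2 at 1.18, and to at most 0.350 in the others, and the epithelial list to at most 0.592 in any culture. The leukocyte list, of which 3 genes were in the table, summed to 37.5 to 88.6 in β1-WT-GFP cells and 31.0 to 103 in β1-K794Q-GFP cells, nearly all of it Cd68, with Ptprc under 1 in every culture. In bulk RNA, a change in the share of cells that hold a transcript and a change in its level per cell cannot be told apart. One culture of the β1-WT-GFP cells, C, stood apart from the other two: 22.4% of all tested genes were at least 2-fold away from the mean of cultures A and B. Among the listed genes this held for 8 of 54 (14.8%), and the median absolute difference was 0.35 on the log2 scale, against 0.47 over all tested genes.

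Counts were scaled to CPM with edgeR's TMM factors and are called normalized counts. The values of a gene are given in the order of cultures A, B and C, first for β1-K794Q-GFP cells and then for β1-WT-GFP cells. A log2 ratio is the log2 of a culture's normalized count over the mean of the β1-WT-GFP cultures, with 0.5 added to both. A log2 fold change is the group difference fitted by edgeR. A gene was past both thresholds if its fold change reached 2 and its p before adjustment did not exceed 0.05 (quasi-likelihood F-test of edgeR).

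Of the β1-K794Q-GFP cultures, A and C had the higher levels of the listed genes and B the lower. The median log2 ratio over the 54 tested genes was 1.46 in culture A, a 2.76-fold level, and 1.37 in culture C, a 2.58-fold level. In culture B it was 0.42, a 1.34-fold level. Over all 11608 genes the corresponding medians were -0.04, -0.05 and -0.06 in cultures A, C and B. Over the 452 tested genes of chromosome 10 before the segment they were 0.33, 0.34 and 0.44. In culture B the listed genes were thus no higher than the rest of their chromosome. Of the 54 genes, 53, 49 and 54 lay above the β1-WT-GFP mean in cultures A, B and C, and 45, 10 and 45 were at least 2-fold above it. Over all 11608 genes, 5331, 5286 and 5269 lay above it, and 661, 782 and 837 were at least 2-fold above it. Culture B was the lowest of the 3 β1-K794Q-GFP cultures in 49 of the 54 genes, beside 4816 of all 11608. The exceptions among the listed genes were Irak3, Msrb3, Rassf3, Mars and Timeless. In 50 genes both A and C were above every β1-WT-GFP culture, the other 4 being Irak3, Srgap1, Shmt2 and Lrp1. Over all 11608 genes this held for 1949. In 18 genes culture B was no higher than the highest β1-WT-GFP culture, beside 8253 of all 11608.

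**Figure D1:**
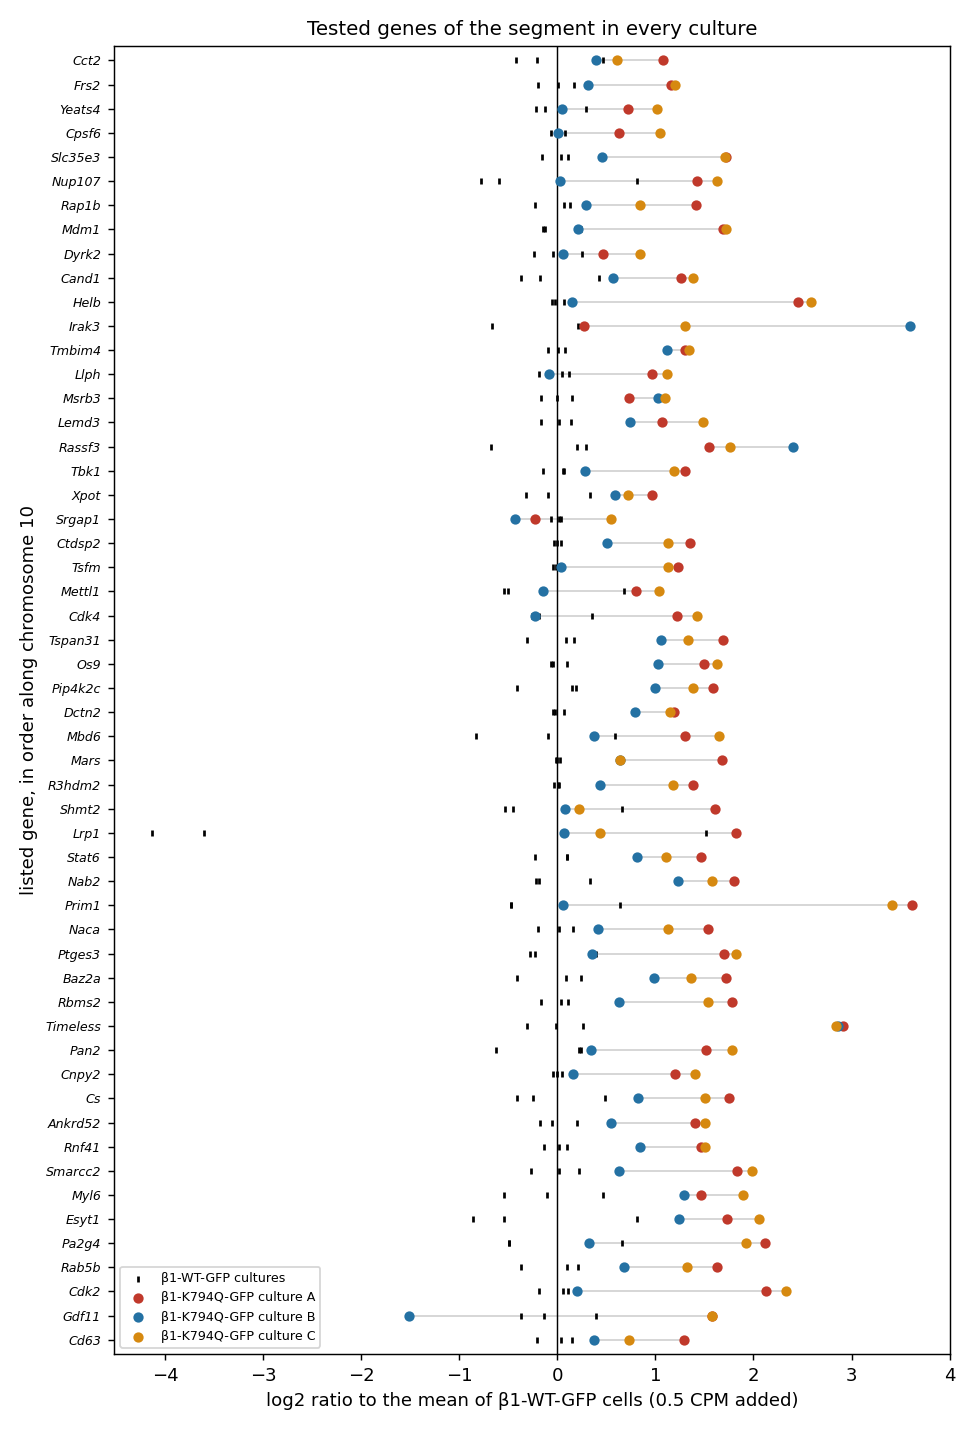
Log2 ratio to the mean of the β1-WT-GFP cultures (x axis) of the 54 tested genes (y axis, in order along chromosome 10), with 1 point per β1-K794Q-GFP culture, black ticks for the 3 β1-WT-GFP cultures and a grey line over the range of the β1-K794Q-GFP cultures. Cultures A and C lie near each other, at medians of 1.46 and 1.37, and the blue points of culture B are shifted towards 0, at a median of 0.42.

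In the fit, 35 of the 54 genes passed both thresholds, each with the higher level in β1-K794Q-GFP cells, beside 3.48% of all tested genes in that direction. In 35 genes all 3 β1-K794Q-GFP cultures were above all 3 β1-WT-GFP cultures, beside 8.45% of all tested genes. These counts use the same contrast as the choice of the list, and nothing is read from them. The median log2 fold change was 1.17, against -0.02 over all tested genes. The count was 43 if β1-K794Q-GFP culture B was left out, 25 if culture A and 26 if culture C, and 37 on omission of culture C of the β1-WT-GFP cells. Log2 fold changes on either side of the fold threshold were 0.97 for Cdk4, 0.99 for Lrp1, 0.99 for Tbk1, 1.02 for Cnpy2 and 1.04 for Ctdsp2, and these genes are not set apart from each other by it. Cdk4 and Lrp1 did not meet the p threshold either, whereas Tbk1, Cnpy2 and Ctdsp2 did. In the fits that each left out 1 culture, 53 of the 54 genes kept a log2 fold change above 0 in all 6, Srgap1 being the exception.

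The list and its roles were set with earlier results of these data known, so a ranking of the roles is a description only. The 5 genes of the cell cycle and of DNA replication had the highest median log2 fold change of the 6 roles, 2.10. They also had the widest distance of culture B from the mean of A and C, with a median difference of -2.03 on the log2 scale against -0.83 over the 54 genes. Their promoters, the 250 bases before the transcript start as given by RefSeq (GRCm38.p6), are shown for the gene that was high in all 3 β1-K794Q-GFP cultures (Timeless) and for 3 that were high in A and C and near the β1-WT-GFP level in B (Cdk2, Prim1 and Helb). Capitals mark an E2F-type motif.
Timeless, chr10:128237816-128238065, plus strand: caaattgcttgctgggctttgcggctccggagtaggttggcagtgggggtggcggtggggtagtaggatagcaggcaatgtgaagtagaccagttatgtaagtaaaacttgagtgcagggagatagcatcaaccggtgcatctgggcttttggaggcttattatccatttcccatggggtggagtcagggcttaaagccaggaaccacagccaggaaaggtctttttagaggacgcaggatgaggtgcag
Cdk2, chr10:128705052-128705301, minus strand: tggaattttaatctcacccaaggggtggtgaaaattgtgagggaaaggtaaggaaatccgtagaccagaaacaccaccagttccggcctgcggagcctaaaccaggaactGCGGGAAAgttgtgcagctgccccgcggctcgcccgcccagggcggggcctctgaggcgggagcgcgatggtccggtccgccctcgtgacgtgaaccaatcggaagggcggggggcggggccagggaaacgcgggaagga
Prim1, chr10:128014965-128015214, plus strand: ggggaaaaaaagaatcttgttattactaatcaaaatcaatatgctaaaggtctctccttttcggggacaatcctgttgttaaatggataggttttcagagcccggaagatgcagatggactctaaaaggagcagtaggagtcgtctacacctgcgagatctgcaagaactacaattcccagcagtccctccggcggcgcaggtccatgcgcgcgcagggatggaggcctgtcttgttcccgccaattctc
Helb, chr10:120112966-120113215, minus strand: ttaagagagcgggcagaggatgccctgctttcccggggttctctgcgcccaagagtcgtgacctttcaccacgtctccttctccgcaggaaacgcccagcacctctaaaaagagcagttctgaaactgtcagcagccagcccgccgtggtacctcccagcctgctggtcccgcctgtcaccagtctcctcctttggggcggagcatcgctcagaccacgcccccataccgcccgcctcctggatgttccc
The letters searched were TTTCCCGC, TTTGGCGC, TTTCGCGC and TTTGCCGC on both strands. Cdk2 had 1 match, and the windows of Timeless, Prim1, Helb and Cdk4 had none. The Timeless window lies inside the gene as GENCODE gives it, with a start at 128232065. The bases before that start were not searched. Of 59 windows that RefSeq gives for 52 listed genes, 3 (5.08%) held a match, those of Cdk2, Lrp1 and Esyt1, beside 611 of 32851 windows of all genes (1.86%). A match describes the letters only, and the absence of one says nothing about the factor.

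Timeless, which with Tipin protects moving replication forks, had 279.6, 269 and 267 normalized counts in the β1-K794Q-GFP cultures, against 44.2, 36.4 and 29.5 in the β1-WT-GFP cultures. All 3 β1-K794Q-GFP cultures were close together and above every β1-WT-GFP culture, with ratios of 7.62, 7.34 and 7.27 to the β1-WT-GFP mean. Prim1, the catalytic subunit of the primase that starts each new DNA strand, was at 207, 17.1 and 179.7 normalized counts, against 11.7, 11.7 and 25.8 in β1-WT-GFP cells. Cultures A and C were 12.6 and 10.9 times the β1-WT-GFP mean, and culture B, at 1.04 times, was below β1-WT-GFP culture C. Cdk2, the kinase of the E- and A-type cyclins, had 237, 61.8 and 272 normalized counts in the mutant cultures and 57.998, 55.8 and 47.1 in the wildtype ones, so that culture B was 1.15 times the β1-WT-GFP mean and still above its highest culture. Helb, a DNA helicase active at replication stress and DNA ends, had 98.1, 19.4 and 107 normalized counts in the β1-K794Q-GFP cultures, against 16.8, 18.4 and 17.2 in the β1-WT-GFP cultures. Its culture B was 1.11 times and its cultures A and C 5.62 and 6.15 times the β1-WT-GFP mean. Cdk4 was at 594, 217 and 686 normalized counts, against 213, 223 and 326 in β1-WT-GFP cells. Here culture B was below the β1-WT-GFP mean, at 0.853 times, and A and C were above all β1-WT-GFP cultures. Cdk4 lies tail to tail with Tspan31 on the opposite strand, and 641 exon bases are common to both, 19.7% of those of Cdk4 and 29.2% of those of Tspan31. Whether strand was used in counting is not given in the sources used here, and reads from these bases cannot be told apart. Tspan31, a membrane protein of the tetraspanin family, did not follow Cdk4 in culture B: its values were 266, 172 and 208 against 87.7, 92.9 and 66.2.

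**Figure D2:**
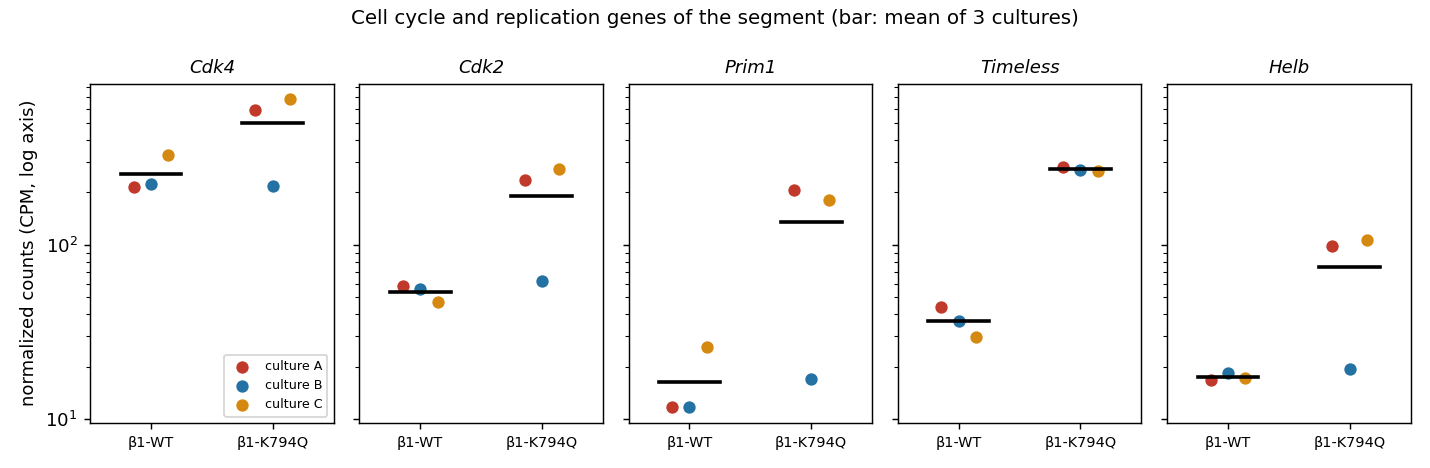
Normalized counts (CPM, log axis) of the 5 cell cycle and replication genes in each culture, with points coloured by culture letter and a black bar for the mean of the 3 cultures of a group. Timeless is between 267 and 279.6 in all β1-K794Q-GFP cultures, whereas culture B of Cdk4, Cdk2, Prim1 and Helb lies near the β1-WT-GFP points.

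The proteins that work with these genes are coded on other chromosomes and were not used to choose the list. They too were listed with earlier results of these data known, and the paper had already reported Ccnd2 and Ccne1 as upregulated. For Cdk4 the partners were Ccnd1, Ccnd2, Ccnd3 and Cdk6. Ccnd2 (cyclin D2, chromosome 6) had 439, 676 and 391 normalized counts in the β1-K794Q-GFP cultures, against 65.8, 62.5 and 13.7 in the β1-WT-GFP cultures, with no overlap between the groups. Its log2 fold change was 3.41 ± 0.64 (SE), with an adjusted p of 0.12 in edgeR's test over all genes. Ccnd3 (cyclin D3, chromosome 17) had 87.3, 122 and 96.4 against 52.5, 53.9 and 37.7, again without overlap, and its log2 fold change was 1.08 ± 0.22 (SE), with an adjusted p of 0.145 in the same edgeR test. Culture B, lowest for Cdk4, was the highest of the 3 for both cyclins. Ccnd1 (cyclin D1) was at 267, 2078 and 424 against 169, 160.1 and 1204, and the groups overlapped. Cdk6, the sister kinase of Cdk4, had a log2 fold change of 0.32.

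For Cdk2 the partners were Ccne1, Ccne2 and Ccna2. Ccne1 (cyclin E1, chromosome 7) had 27.2, 5.33 and 26.1 normalized counts in the β1-K794Q-GFP cultures, against 3.06, 3.30 and 8.50 in the β1-WT-GFP cultures. Ccne2 (cyclin E2, chromosome 4) had 55.9, 13.8 and 76.3 against 9.71, 6.80 and 20.5. In both, cultures A and C were above all β1-WT-GFP cultures and culture B was below β1-WT-GFP culture C. As for Cdk2, culture B was the lowest of the β1-K794Q-GFP cultures. Their log2 fold changes were 1.97 ± 0.72 and 1.98 ± 0.70 (SE), with adjusted p of 0.413 and 0.397 in edgeR's test. Ccna2 (cyclin A2) had a log2 fold change of 0.02. For Prim1 the partners Prim2, Pola1 and Pola2, the rest of the DNA polymerase α-primase complex, had log2 fold changes of 0.47 to 1.19, and the median of their log2 ratios was 1.00, -0.54 and 1.20 in cultures A, B and C. For Timeless the partner Tipin had 0.48, with 0.72, -0.76 and 0.95 in the cultures, so that culture B was low for Tipin and not for Timeless.

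In all, 76 genes coded outside the segment were listed as partners of 21 segment genes, and 75 of them were tested. Of these 75, the 4 cyclins Ccnd2, Ccnd3, Ccne1 and Ccne2 passed both thresholds, all higher, beside 3.48% of all tested genes in that direction. Adjusted over all genes, no p of these 4 was under 0.05, which 0.181% of all tested genes reached. The count of 4 was 2 without β1-K794Q-GFP culture A or C or β1-WT-GFP culture A or B, and 7 on omission of β1-WT-GFP culture C. The median log2 fold change of the partners was -0.06. Of the 20 tested segment genes with a partner, 19 were above the median of their partners, with Cdk2 (1.83 against 1.97) as the exception. Cdk4 was level with its partners, at 0.97 against 0.97, with 2 of 4 above it. The segment genes were listed with this contrast known, so that their side of the comparison was chosen for being high. Gene by gene, 70 of 74 partners had a lower log2 fold change than their segment gene. The median was 1.09 over the 20 segment genes and -0.03 over the medians of their partners. Of the partners, 3 lie elsewhere on chromosome 10, Nup37, Nup43 and Smarcb1, with log2 fold changes of 0.39, 0.09 and 0.57.

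**Figure D3:**
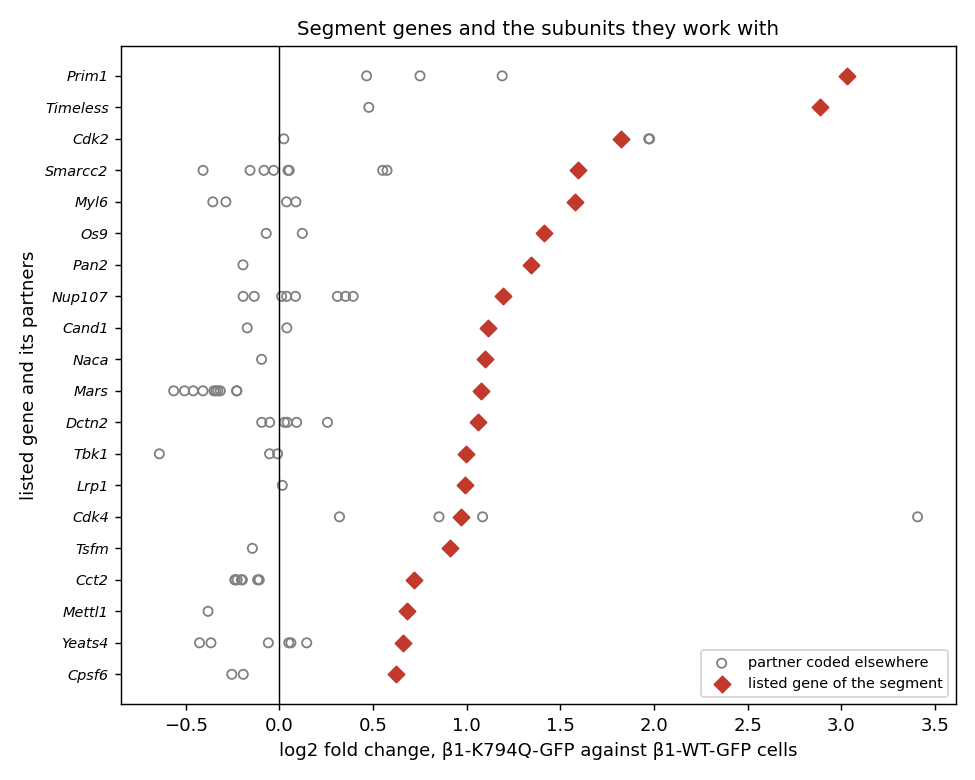
Fitted log2 fold change (x axis) of 20 tested segment genes (red diamonds, 1 per line of the y axis) and of the partners of each that are coded elsewhere (open circles). The diamonds lie between 0.62 and 3.03, and 70 of the 74 circles lie to the left of the diamond of their line.

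Of 12 genes of protein synthesis, folding and turnover, all tested, 8 were past both thresholds, beside 3.48% of all tested genes in that direction, and the median log2 fold change was 1.09. Cct2, a subunit of the TRiC ring that folds actin and tubulin, had 587, 366 and 424 normalized counts in the β1-K794Q-GFP cultures, against 208, 242 and 386 in the β1-WT-GFP cultures. Culture B was below the highest β1-WT-GFP culture. Its log2 fold change was 0.72, while the other 7 subunits were within -0.24 to -0.11. Mars, which charges the initiator and elongator transfer RNA with methionine, was at 361, 176 and 176 normalized counts, against 111, 112 and 115 in β1-WT-GFP cells, so that culture C was as low as B. The 10 other members of the multisynthetase complex, in which Mars sits, were at -0.56 to -0.23 against 1.08 for Mars, which was 0.64 without β1-K794Q-GFP culture A. Naca, which shields new peptides at the ribosome exit, had 497, 228 and 376 normalized counts in the mutant cultures and 173, 149 and 192 in the wildtype ones. Its dimer partner Btf3 had a log2 fold change of -0.09 against 1.10. Tsfm, the mitochondrial elongation factor that recycles Tufm, had 38.6, 16.6 and 35.8 normalized counts in the β1-K794Q-GFP cultures, against 15.9, 15.6 and 16.9 in the β1-WT-GFP cultures. Culture B was within the β1-WT-GFP range there, and Tufm was at -0.14 against 0.91 for Tsfm. Mettl1, the transfer RNA methyltransferase that works with Wdr4, was at 12.3, 6.12 and 14.6 normalized counts, against 4.55, 4.70 and 11.3 in β1-WT-GFP cells. The groups overlapped, and Wdr4 was at -0.38 against 0.68.

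The group also holds genes of protein turnover. Cand1, which exchanges the receptors of cullin ligases, had 399.8, 248 and 436 normalized counts in the mutant cultures and 129, 148 and 224 in the wildtype ones, with no overlap, and its partners Cul1 and Rbx1 were at -0.17 and 0.04 against 1.11. Os9, a lectin of the endoplasmic reticulum that hands misfolded proteins to degradation, had 289, 209 and 317 normalized counts in the β1-K794Q-GFP cultures, against 109, 97.3 and 99.2 in the β1-WT-GFP cultures. The groups did not overlap, culture B being 2.05 times the β1-WT-GFP mean, and the partners Sel1l and Syvn1 were within -0.07 to 0.12 against 1.41. Pa2g4, a growth-regulating protein that binds ribosomal RNA and Erbb3, had the highest log2 fold change of the group, 1.65, and was at 453, 130.4 and 396 normalized counts, against 73.7, 73.9 and 165 in β1-WT-GFP cells. Its culture B was below β1-WT-GFP culture C. The remaining genes, among them the co-chaperone Ptges3 and the ubiquitin ligase Rnf41, were between 0.80 and 1.43.

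Of 13 genes of chromatin, transcription, RNA processing and the nuclear envelope, all tested, 9 were past both thresholds (3.48% of all tested genes), with a median log2 fold change of 1.19. Smarcc2, a core subunit of the SWI/SNF chromatin remodeller, had 789.7, 343 and 882 normalized counts in the mutant cultures and 258, 224 and 184 in the wildtype ones. All β1-K794Q-GFP cultures were above all β1-WT-GFP cultures, and the 8 other subunits of the complex had a median of 0.01 against 1.60, within -0.41 to 0.57. Nup107, a scaffold of the nuclear pore, had 77.7, 29.2 and 89.4 normalized counts in the β1-K794Q-GFP cultures, against 18.8, 16.5 and 50.4 in the β1-WT-GFP cultures, so that B was below β1-WT-GFP culture C. The 8 partners of the same pore ring were within -0.19 to 0.39 against 1.19. Pan2, the nuclease that starts the shortening of poly(A) tails, was at 149, 65.7 and 179 normalized counts, against 60.4, 61.4 and 33.4 in β1-WT-GFP cells. Culture B was just above the β1-WT-GFP range, and its partner Pan3 was at -0.19 against 1.34.

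The lowest log2 fold changes of this role were near the start of the segment. Yeats4, which reads acetylated histones for the TIP60 and SRCAP complexes, had 44.2, 27.6 and 54.6 normalized counts in the mutant cultures and 24.4, 22.9 and 32.7 in the wildtype ones. Cpsf6, a subunit of the factor that picks the site of 3′ end cleavage, had 264, 172 and 352 normalized counts in the β1-K794Q-GFP cultures, against 169, 163 and 180.0 in the β1-WT-GFP cultures. In both genes culture B was inside the β1-WT-GFP range and A and C were above it. The 6 TIP60 partners of Yeats4 were within -0.43 to 0.15 against 0.66, and the partners Nudt21 and Cpsf7 of Cpsf6 were within -0.25 to -0.19 against 0.62. The other 8 genes, among them the silencing factor Baz2a (1.39), the nuclear envelope protein Lemd3 (1.14) and the transfer RNA exporter Xpot (0.77), were between 0.77 and 1.39.

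In the group of the cytoskeleton and membrane traffic 7 of 8 genes were tested and 6 were past both thresholds (3.48% of all tested genes), with a median log2 fold change of 1.39. Myl6, the essential light chain of non-muscle myosin, was at 288, 255 and 388 normalized counts, against 96.7, 71.4 and 144 in β1-WT-GFP cells. The groups were apart, with culture B at 2.45 times the β1-WT-GFP mean, and Myh9, Myh10, Myl12a and Myl12b, the other chains, were within -0.36 to 0.09 against 1.58. Dctn2, the dynamitin subunit of dynactin, had 333, 253 and 324 normalized counts in the mutant cultures and 152, 141 and 143 in the wildtype ones, and the 6 other dynactin subunits were within -0.09 to 0.26 against 1.06. Esyt1, a tether between the endoplasmic reticulum and the plasma membrane, had the highest value of the group, 1.72, and had 185, 132 and 233 normalized counts in the β1-K794Q-GFP cultures, against 30.3, 38.0 and 97.9 in the β1-WT-GFP cultures. On omission of its highest control, culture C, the value was 2.44. Cd63, a tetraspanin of late endosomes and exosomes, had the lowest, 0.85, and was at 599, 318 and 407 normalized counts, against 212, 251 and 271 in β1-WT-GFP cells. The centriole protein Mdm1, Tspan31 and the early endosome GTPase Rab5b were at 1.40, 1.39 and 1.27. Kif5a, a kinesin of neurons, was not tested, with at most 34 reads in a culture.

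Of 5 genes of metabolism and mitochondria 3 were past both thresholds (3.48% of all tested genes), with a median of 1.27. Slc35e3, a member of the nucleotide sugar transporter family, had the highest log2 fold change, 1.43, and had 66.1, 27.2 and 65.4 normalized counts in the mutant cultures and 17.6, 21.3 and 20.2 in the wildtype ones. Shmt2, the mitochondrial enzyme that takes one-carbon units from serine, had the lowest, 0.81, and had 408, 142 and 156 normalized counts in the β1-K794Q-GFP cultures, against 92.2, 98.1 and 211 in the β1-WT-GFP cultures. For Shmt2, culture A alone was above the β1-WT-GFP range, and without it the log2 fold change was 0.15. On omission of β1-WT-GFP culture C it was 1.32. Cs, the citrate synthase that opens the citric acid cycle, was at 1.41, Tmbim4 at 1.27 and Msrb3, which repairs oxidised methionine, at 0.96.

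The log2 fold changes of the signalling genes ranged from 0.03 to 3.01. Of 15, 12 were tested and 5 were past both thresholds (3.48% of all tested genes), with a median log2 fold change of 1.07. Rassf3, a RAS-association protein, was at 328, 593 and 381 normalized counts, against 137, 128 and 69.8 in β1-WT-GFP cells. It had no overlap between the groups, and culture B was its highest culture. Irak3, an inhibitor of Toll-like receptor signalling, had 0.963, 14.1 and 2.49 normalized counts in the mutant cultures and 0.262, 0.900 and 0.975 in the wildtype ones. Culture B, at 19.8 times the β1-WT-GFP mean, stood far above the others, the mean itself rested on few reads, and without that culture the log2 fold change was 1.27 instead of 3.01. Irak3 and its neighbour Tmbim4, which lie on opposite strands, have 192 exon bases in common. Irak3 and Rassf3 were the only 2 of the 54 genes with culture B as the highest.

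Srgap1, a GTPase activator downstream of Slit and Robo, had 94.3, 81.9 and 162 normalized counts in the β1-K794Q-GFP cultures, against 114, 106 and 112 in the β1-WT-GFP cultures, and its log2 fold change of 0.03 was the lowest of the list. Dyrk2, a kinase that phosphorylates p53, was at 21.7, 16.2 and 28.1 normalized counts, against 13.0, 18.5 and 14.97 in β1-WT-GFP cells, with a log2 fold change of 0.51. In Srgap1 cultures A and B were below all β1-WT-GFP cultures, and in Dyrk2 culture B was inside their range. Tbk1, the kinase that switches on interferon production, had 231, 113 and 213 normalized counts in the mutant cultures and 98.1, 97.4 and 84.5 in the wildtype ones, with no overlap. Its adaptors Tank, Azi2 and Tbkbp1 were within -0.64 to -0.01 against 0.99. Lrp1, a large endocytic receptor, had 92.7, 27.0 and 35.1 normalized counts in the β1-K794Q-GFP cultures, against 1.66, 1.00 and 74.8 in the β1-WT-GFP cultures, so that β1-WT-GFP culture C alone lay within the range of the β1-K794Q-GFP cultures. Without that culture its log2 fold change was 5.27 instead of 0.99, and its chaperone Lrpap1 was at 0.02. Gdf11, a ligand of the TGF-β family, was at 18.0, 1.68 and 18.1 normalized counts, against 5.16, 4.30 and 7.66 in β1-WT-GFP cells. Culture B was 0.294 times the β1-WT-GFP mean, and A and C were 3.15 and 3.16 times it.

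The other tested signalling genes were the adaptor Frs2 of FGF receptors (0.95), the GTPase Rap1b that regulates integrins and junctions (0.92), the lipid kinase Pip4k2c (1.35), the interleukin-4 transcription factor Stat6 (1.16) and the co-repressor Nab2 of Egr factors (1.59). The 3 listed signalling genes that were not tested were close to 0. Erbb3, a receptor of neuregulins, had 8, 2 and 1 reads in the β1-K794Q-GFP cultures, against 1, 0 and 5 in the β1-WT-GFP cultures. Agap2 had 5, 1 and 4 reads against 1, 0 and 1, and Gli1, the transcription factor of the Hedgehog pathway, had 4, 6 and 8 against 2, 4 and 4. A count of 0 allows up to 3 reads, or 0.300 normalized counts in the shallowest culture, counting error alone considered. Erbb2, the partner of Erbb3, was at -0.26, and Egfr was not tested.

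Along the chromosome the listed genes fell into 2 stretches, with a gap of 4.9 Mb without a listed gene between Srgap1 and Ctdsp2. The first holds 20 genes from Cct2 to Srgap1, with medians of the log2 ratio at 1.12, 0.30 and 1.19 in cultures A, B and C. The second holds 38 genes from Ctdsp2 to Cd63, of which 34 were tested, with 1.58, 0.53 and 1.47. In the first stretch 8 of 20 tested genes were past both thresholds, and in the second 27 of 34, beside 3.48% of all tested genes. Of the 58 genes 22 are on the plus and 36 on the minus strand. Over the 54 genes the log2 ratio had a Spearman correlation with position of 0.53, 0.21 and 0.37 in cultures A, B and C, against 0.09, 0.04 and 0.04 with exon length. With the β1-WT-GFP level it was -0.00, 0.19 and -0.22. These points share the libraries and neighbouring genes are not independent, so no test was made.

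**Figure D4:**
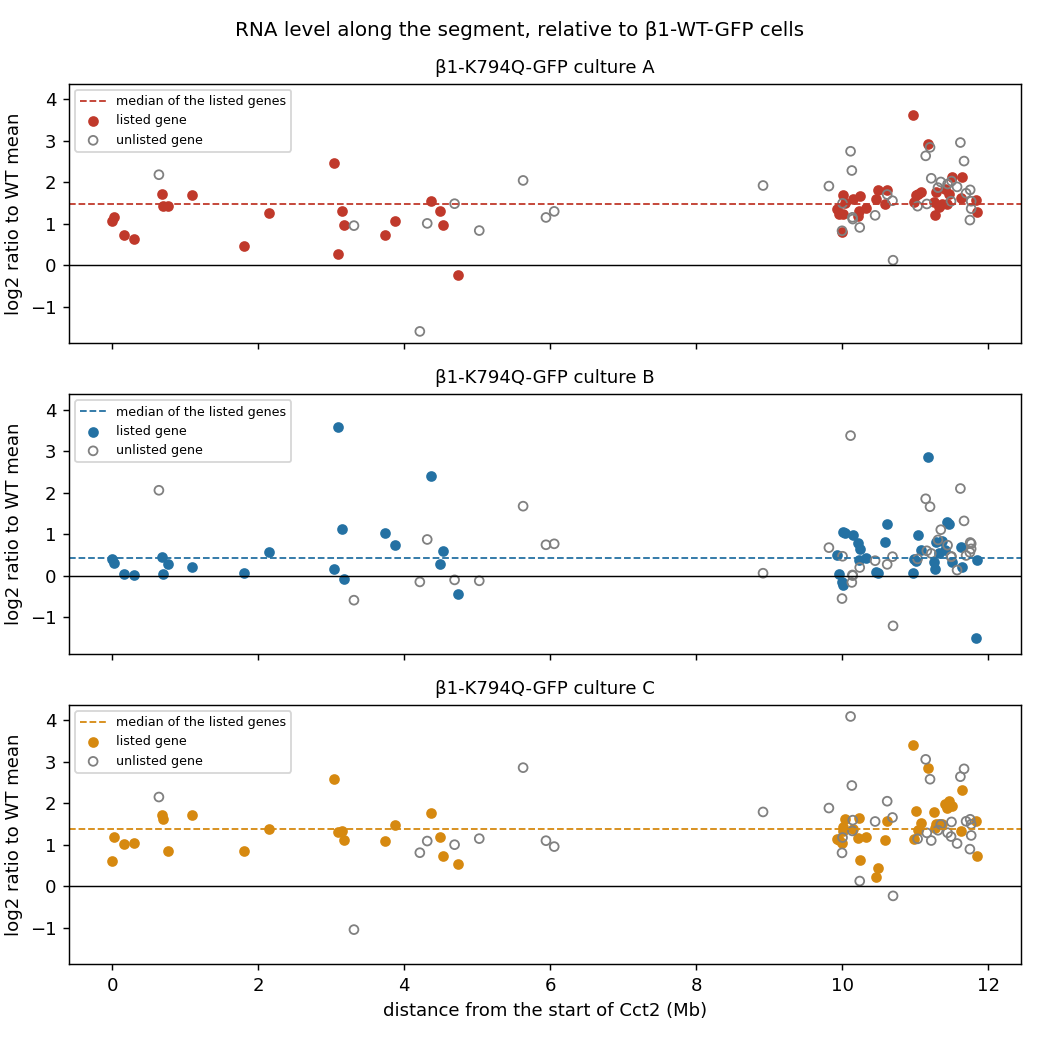
Log2 ratio to the mean of the β1-WT-GFP cultures (y axis) against the distance from the start of Cct2 in Mb (x axis), in 1 panel per β1-K794Q-GFP culture, with filled points for listed genes, open points for unlisted tested genes of the same interval and a dashed line at the median of the listed genes. The dashed lines are at 1.46, 0.42 and 1.37 in cultures A, B and C, and the open points lie around them, with medians of 1.55, 0.51 and 1.34.

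Per kilobase of exon, the listed genes had a median level of 20.3 normalized counts in β1-WT-GFP cells, against 7.90 over all tested genes. In the unlisted tested genes of the same interval it was 6.54, so that the higher level was not one of the whole interval. Rap1b (138), Cct2 (109), Cdk4 (78.3), Ptges3 (76.3) and Cd63 (66.5) had the highest level per kilobase in β1-WT-GFP cells. The lowest were Agap2, Erbb3, Gli1 and Kif5a, each at no more than 0.101 per kilobase.

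Between the listed genes lie 91 further genes of the table, of which 40 were tested, Mdm2 among them. They were picked by position, and the interval itself by the listed genes. Their median log2 ratios were 1.55, 0.51 and 1.34 in cultures A, B and C, and the median log2 fold change was 1.25. Of the 40, 38 were above 0, 26 passed both thresholds, all higher, beside 3.48% of all tested genes that were higher and 1.71% that were lower. Without each culture in turn the 26 became 18 to 36, with the lowest count without β1-K794Q-GFP culture A and the highest without culture B.

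Mdm2 had 475, 437 and 465 normalized counts in the mutant cultures and 87.7, 92.2 and 133 in the wildtype ones. It was over 4-fold above the β1-WT-GFP mean in every β1-K794Q-GFP culture, with no overlap, and like Timeless it was as high in culture B as in A and C. The 5 largest log2 fold changes among the unlisted genes were those of Apon (4.11), B4galnt1 (3.68), Gls2 (3.19), Suox (2.72) and Dgka (2.40). B4galnt1, which makes complex gangliosides, had 24.6, 38.3 and 63.2 normalized counts in the β1-K794Q-GFP cultures, against 1.84, 1.80 and 6.06 in the β1-WT-GFP cultures. Suox, the sulfite oxidase of mitochondria, was at 41.1, 22.5 and 32.9 normalized counts, against 3.76, 5.10 and 5.71 in β1-WT-GFP cells. Dgka, a diacylglycerol kinase, had 67.7, 29.4 and 84.6 normalized counts in the mutant cultures and 13.1, 13.9 and 7.38 in the wildtype ones. In these 3 genes the groups did not overlap. Gls2, a glutaminase, had 7.32, 4.05 and 9.98 normalized counts in the β1-K794Q-GFP cultures, against 0.787, 0.300 and 1.18 in the β1-WT-GFP cultures. Apon, an apolipoprotein, was at 4.43, 1.68 and 3.61 normalized counts, against 0.262, 0.300 and 0 in β1-WT-GFP cells, which is 3, 3 and 0 reads in the β1-WT-GFP cultures, so that its fitted fold change depends on the small count added by the fit.

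The 5 smallest log2 fold changes were those of Gpr182 (-0.34), Tbc1d30 (-0.01), Hmga2 (0.04), Ddit3 (0.47) and Tmem5 (0.73). Hmga2, a chromatin protein of embryonic cells, had 306, 105 and 76.2 normalized counts in the mutant cultures and 38.8, 48.4 and 387 in the wildtype ones. Without β1-WT-GFP culture C, which held most of it, its log2 fold change was 1.91 and past both thresholds. Gpr182, an endothelial receptor that binds chemokines, had 82.6, 32.6 and 64.6 normalized counts in the β1-K794Q-GFP cultures, against 109, 116 and 2.44 in the β1-WT-GFP cultures. Ddit3, the stress transcription factor CHOP, was at 43.8, 26.5 and 25.2 normalized counts, against 29.4, 25.7 and 14.1 in β1-WT-GFP cells. Tbc1d30, a GTPase activator of Rab proteins, had 1.35, 4.54 and 9.29 normalized counts in the mutant cultures and 4.90, 4.80 and 5.57 in the wildtype ones, and Tmem5, an enzyme of dystroglycan glycosylation, had 39.6, 20.1 and 49.3 normalized counts in the β1-K794Q-GFP cultures, against 23.5, 18.9 and 23.5 in the β1-WT-GFP cultures. In all 5 genes the groups overlapped. For Tbc1d30, β1-K794Q-GFP culture A was the lowest and C the highest of all.

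The higher level did not stop at the start of the list. In the 22 tested genes of the 10 Mb before Cct2 the log2 ratio had medians of 1.05, 0.46 and 0.97 in cultures A, B and C. After Cd63 only 3 tested genes follow on the chromosome, too few to describe that side, and they did not all go the same way. Bloc1s1 had 45.2, 19.1 and 42.9 normalized counts in the β1-K794Q-GFP cultures, against 15.3, 13.1 and 12.6 in the β1-WT-GFP cultures, Rdh5 had 9.24, 44.6 and 8.51 against 2.27, 2.20 and 1.53, and Itga7 had 19.0, 36.6 and 8.69 against 22.7, 19.9 and 61.4. In all 452 tested genes of chromosome 10 before the segment the medians were 0.33, 0.44 and 0.34, and in the 10973 genes of the other chromosomes -0.05, -0.08 and -0.07.

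Among 207 bins of 10 Mb with at least 20 tested genes over the genome, the bin of 120 to 130 Mb of chromosome 10 had the highest median log2 ratio in cultures A (1.54) and C (1.37). The bin of 110 to 120 Mb was next, at 1.16 and 1.04. Both bins hold listed genes, which were chosen with this ratio known, so their ranks in part restate that choice. In culture B these bins ranked 5 and 12, at 0.52 and 0.34, and the highest bin was that of 50 to 60 Mb of the same chromosome, at 0.83. From 70 to 100 Mb the bins of chromosome 10 were between 0.44 and 0.73 in all 3 cultures. From there to the segment the medians of cultures A and C were higher again, whereas those of culture B were not. These are RNA levels, and the number of copies of the segment was not measured.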

How the data were processed

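Total RNA of 6 cultures was sequenced. Per the submitters' processing notes, bcl2fastq 2.20.0, STAR 2.7.4a, HTSeq 0.9.1, edgeR 3.38.4 and the build mm10 were used. The authors deposited raw counts of reads per mouse gene symbol, with no other column of per-sample values (0). Whether strand was used in counting is not given in the sources used here.

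The counts were analysed with edgeR 4.0.16 in R 4.3.3. Genes were kept by filterByExpr, normalized with TMM and compared by the two-sided quasi-likelihood F-test, with Benjamini-Hochberg adjustment over all 11608 tested genes. Positions came from GENCODE M21 (GRCm38), with 21777 symbols matched directly and 1260 through a synonym. Tables and plots were made with pandas 2.3.3 and matplotlib 3.10.9. The fit was first tested on simulated counts.

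The 58 genes, their roles and the lists of partners and markers were chosen with earlier results of these data known. Genes given by culture are those with a partner, the extremes of each role and the 5 highest and 5 lowest of all; of the unlisted genes the 5 largest and 5 smallest differences, and Mdm2; of the partners those past both thresholds. Gdf11, Tspan31, Ccnd1, the 3 genes after Cd63 and the other genes named were chosen after their values were seen. DESeq2 1.42.0, other normalizations, filters and pseudocounts, a block for the culture letter and the omission of each culture were alternatives.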

Additional observations from a re-analysis of the deposited data

How the results depend on the processing

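The median log2 ratios of the segment moved under every alternative by less than the SD between the medians of the β1-K794Q-GFP cultures. That measure is wide for culture B, whose median of 0.42 lay far below those of A and C. The medians were 1.40 to 1.48 in β1-K794Q-GFP culture A, 0.27 (library totals in place of TMM) to 0.56 (without β1-WT-GFP culture C) in B and 1.30 to 1.43 in C. The count of listed genes past both thresholds was 34 to 36 with DESeq2, edgeR's likelihood ratio test, RLE, TMM without chromosome 10, no filter or a filter of 10 counts in every culture. Leaving out 1 culture gave 25 to 43, and 19 genes passed in all 6 such fits and 6 in none. Without the 13 tested genes that have exon bases in common with another counted gene, an alternative chosen after seeing the data, 25 of 41 passed and the medians were 1.46, 0.38 and 1.41. Over all genes the 603 calls became 916 without a filter, which tests 15974 genes, and 501 to 992 with 1 culture left out. The 4 calls among the partners became 2 to 7 with 1 culture left out. Of the listed genes tested, the unlisted extremes with Mdm2 and the 4 cyclins, those past both thresholds kept their sign under each alternative, whereas Srgap1, Gpr182, Hmga2 and Tbc1d30, not past them, changed it under some. Srgap1 went from a log2 fold change of 0.03 to -0.33 without β1-K794Q-GFP culture C, and the median of the partners from -0.06 to 0.10 without β1-WT-GFP culture C. Of the same letter, β1-WT-GFP and β1-K794Q-GFP cultures deviated together with correlations of 0.0548 to 0.0952, under 0.1. Those of the 6 pairs with different letters were -0.152 to 0.0954. The letters are used as names, and whether they mark a shared step was not tested. β1-WT-GFP culture B correlated best with β1-K794Q-GFP culture A. With the letter as a replicate block the calls were 571 over all genes, 32 in the segment, 25 among the unlisted genes and 4 among the partners, and the log2 fold change of Lrp1 was 3.47. Depth limits the genes with few reads, Irak3 above all of those tested.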
